A study of Mus musculus with 8 samples.

Results

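Adenosine kinase and its metabolic surroundings were followed through blastocysts of 3 Isca2 genotypes. The set holds 10 of the 55471 gene identifiers in the files: Adk, Ada, Pnp, Ahcy, Mat2a, Mat2b, Mtr, Aprt, Hprt and Dck. They cover removal of adenosine, the S-adenosylmethionine cycle and purine salvage. Adk was chosen by its higher level in the libraries without Isca2 (counts and TPM, KO against WT), so its values in that comparison are a description and carry no test. The other 9 genes entered by pathway.

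RNA was sequenced from mouse blastocysts at embryonic day 4.5 in 8 libraries. They were 3 wild-type libraries (WT), 2 libraries of Isca2-/- embryos (KO) and 3 libraries homozygous for the G77S substitution in ISCA2 (Isca2 G77S/G77S, called G77S). Isca2 encodes a mitochondrial protein of iron-sulfur cluster assembly. Per the labels, Isca2+/- females were superovulated and mated with Isca2+/- males, and embryos of all groups were cultured in vitro; the labels leave out which cross gave the G77S embryos, how many embryos went into a library, their sex and any batch. They do not say whether a group's libraries came from different litters, so the p-values reflect spread among libraries, some of which may be technical.

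Adenosine kinase phosphorylates adenosine to AMP, while adenosine deaminase (Ada) converts it to inosine, which purine nucleoside phosphorylase (Pnp) splits to hypoxanthine. Adenosine also arises from methylation: methionine adenosyltransferase (Mat2a with its regulatory partner Mat2b) makes S-adenosylmethionine, methyltransferases turn it into S-adenosylhomocysteine, and Ahcy splits that product into homocysteine and adenosine. The Ahcy reaction is reversible and S-adenosylhomocysteine inhibits methyltransferases, so removal of adenosine keeps the cycle running. Methionine synthase (Mtr) returns homocysteine to methionine.

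Each library held between 10323965 and 23842619 expected counts. Isca2 itself, the check of the labels, stood at 86.9 to 173 CPM in WT, 4.84 and 6.20 CPM in KO and 89.1 to 133 CPM in G77S. CPM are counts scaled to a common library size with TMM factors. The log2 difference between KO and WT was -4.64 for Isca2 (SE 0.41, adjusted p = 0.00387, edgeR). The 7 trophectoderm markers summed to 3915 to 12800 CPM, nearly all from Krt8 and Krt18, and all 7 epiblast markers together reached 151 to 305 CPM, with Sox2 and Esrrb at 0 in WT. The primitive endoderm list was low (17.8 to 47 CPM), with Gata4, Sox17, Sox7 and Foxa2 at 0 in WT. The 5 cumulus and granulosa markers were at 0 in all libraries. Mean fragment lengths were 181.5 to 185.1 bases in G77S and 242.8 to 291.1 bases in the other 5 libraries, so genotype G77S and a difference in preparation cannot be told apart. In bulk libraries, fewer cells of a type and less RNA per cell cannot be told apart either.

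The Adk gene spans chr14:21052574-21448569 on the + strand (GRCm38) and has 10 annotated transcripts of 147 to 4243 bases, 5 of them protein coding. RefSeq gives it a pair of promoters, the second 23.6 kb downstream of the first. Both are shown because Adk had the largest difference among the 10 genes; the upstream one is also the whole gap between Adk and its head-to-head neighbour Ap3m1. The Mat2a promoter is shown because Mat2a differed most between G77S and WT. Capitals mark matches, on either strand, to a GC box (GGGCGG), to a CCAAT box (the letters CCAAT), to a TATA box (TATAAA) and to a YY1 motif (AAGATGGC).
Adk upstream start, chr14:21052509-21052573, + strand: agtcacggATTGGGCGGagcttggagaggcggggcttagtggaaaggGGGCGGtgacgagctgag
Adk downstream start, chr14:21075902-21076151, + strand: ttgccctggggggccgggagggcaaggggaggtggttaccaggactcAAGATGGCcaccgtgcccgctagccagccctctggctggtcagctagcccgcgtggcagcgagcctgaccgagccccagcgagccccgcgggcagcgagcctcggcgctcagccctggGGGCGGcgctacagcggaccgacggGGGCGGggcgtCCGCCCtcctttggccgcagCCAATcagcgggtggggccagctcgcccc
Mat2a, chr6:72439559-72439806, - strand: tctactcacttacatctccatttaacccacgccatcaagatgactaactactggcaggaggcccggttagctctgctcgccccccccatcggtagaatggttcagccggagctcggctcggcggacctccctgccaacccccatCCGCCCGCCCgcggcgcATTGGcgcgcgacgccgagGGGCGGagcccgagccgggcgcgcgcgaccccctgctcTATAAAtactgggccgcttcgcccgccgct

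These stretches were cut from RefSeq windows (GRCm38.p6), leaving out exons of protein-coding genes; all 10 genes had an entry. The 65 bases before the upstream Adk start hold 2 GC boxes and a CCAAT match that overlaps the first of them. A GC box occurs in 19.6% of the 32851 windows of that length and position, and CCAAT in 12% of them. The 250 bases before the downstream start hold 3 GC boxes (32.7% of windows have any), 1 CCAAT (33.8%) and 1 YY1 motif (1.56%). Their GC content was 75.2%, against a median of 52.4%, with 24 CpG dinucleotides against a median of 6. The Mat2a stretch holds 3 GC boxes, 2 of which overlap, 1 CCAAT and 1 TATA box (12.3% of windows have one), at 67.3% GC with 29 CpG. The ETS motif CCGGAAG, the E-box motif CACGTG, the cyclic AMP response element TGACGTCA and the NRF1 motif had no match in the 3 stretches. These matches describe letters only.

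On the TPM scale, which is per length and lets genes be set against each other, the salvage enzyme Hprt was the most abundant of the 10 in every group. Its mean was 2234 ± 830 TPM in WT (SD, n = 3), 1607 ± 427 in KO (n = 2) and 3047 ± 71.6 in G77S (n = 3). In WT the order continued with Aprt, Adk, Mat2b and Pnp, each apart from the next. Mat2a, Ada and Dck followed with overlapping libraries, and Ahcy and Mtr were lowest, also overlapping. In KO, Adk stood above Aprt in both libraries, and in G77S, Mat2a overlapped Pnp. By TPM, Adk ranked 1046 to 1286 among all genes in the WT libraries, 1104 to 1141 in G77S, and 337 and 317 in KO.

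**Figure D1:**
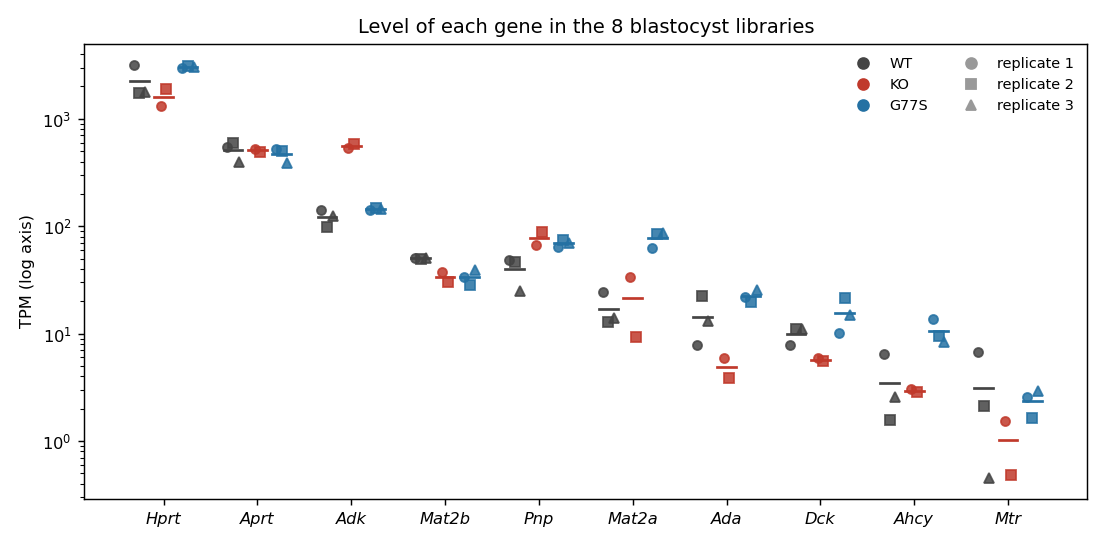
TPM of the 10 genes (log axis) in each library; colours give the genotype, symbols the replicate and lines the group mean. Adk in the KO libraries (534 and 583 TPM) lies above its other 6 libraries (97.4 to 148 TPM), and Mat2a in G77S lies above its WT and KO libraries.

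Adk, the enzyme that returns adenosine to AMP, was 5.51-fold higher in KO than in WT. It stood at 152, 105 and 158 CPM in WT, at 761 and 761 CPM in KO and at 97.1, 96.9 and 116 CPM in G77S. The KO libraries were nearly alike and lay well above all 6 others. The log2 difference from WT was 2.46 (SE 0.23), and that of G77S from KO was -2.88 (SE 0.24). Both are descriptions, since the first chose the gene and the second shares its KO libraries. The same pattern showed in TPM, at 141.6, 97.4 and 125.3 in WT, 534.0 and 582.7 in KO and 140.2, 147.6 and 145.8 in G77S. Over 18 alternative analyses the KO difference was 2.21 to 2.58.

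In G77S, Adk was not distinguishable from WT (-0.42, SE 0.21, adjusted p = 0.302, edgeR), a comparison that uses the same WT libraries as the choice of Adk. Its sign depended on the scale. On log2(TPM + 1) the difference was 0.27, where the median of all genes lay at 0.23. The abundance-weighted transcript length that the files give for Adk was 1011 to 1201 bases in WT, 1075 and 1253 in KO and 817 to 977 in G77S. The G77S values were thus below all others, and their part in the change of sign was not tested.

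Ada, the deaminase that competes for adenosine, was lowest in KO. It stood at 12.5, 44.4 and 26.5 CPM in WT, at 12.0 and 8.74 CPM in KO and at 36.3, 27.9 and 39.0 CPM in G77S. Both KO libraries lay below every other library, although WT replicate 1 was close to them. The log2 difference was -1.41 (SE 0.51) for KO against WT and did not pass the test (adjusted p = 0.276, edgeR). G77S against KO gave 1.72 (SE 0.52, adjusted p = 0.0936), and DESeq2 called this one. The ratio of Adk to Ada TPM was 4.38 to 18.3 in WT, 90.2 and 149 in KO and 5.67 to 7.5 in G77S. Across the 8 libraries Ada had the lowest correlation with Adk of the 8 other members with a mean of at least 10 CPM (Pearson r = -0.84 of log2 CPM + 1). Adk was chosen for its KO level, so the ratio and the correlation follow in part from that choice. Libraries of a genotype also share their group, so both are descriptions.

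Pnp, the next enzyme on the inosine route, had its highest level in KO on the CPM scale. Its levels were 76.8, 91.9 and 49.2 CPM in WT, 136 and 206 CPM in KO and 108, 105 and 105 CPM in G77S. By TPM, its G77S libraries (63.4 to 75.1) overlapped those of KO (66.4 and 88.5). Both mutant groups lay above WT without overlap. The log2 difference from WT was 1.24 in KO (SE 0.30, adjusted p = 0.14) and 0.55 in G77S (SE 0.27, adjusted p = 0.294), neither called by edgeR. DESeq2 called the KO difference. Pnp (chr14:50931082-50965237) overlaps its near-identical copy Pnp2, which had at most 13.1 CPM, so the split of reads between them is uncertain. Pnp2 stood at 2.01, 0.596 and 0 CPM in WT and at 9.33 and 13.1 CPM in KO (adjusted p = 0.338, edgeR).

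Of the methyl-cycle genes, Mat2a, the catalytic subunit of the enzyme that makes S-adenosylmethionine, was highest in G77S. It stood at 55.3, 30.1 and 46.1 CPM in WT, at 99.6 and 25.8 CPM in KO and at 137, 153 and 164 CPM in G77S. Every G77S library exceeded every other library, whereas the KO pair spanned the WT range and beyond. For G77S against WT the difference was 3.45-fold (log2 1.78, SE 0.43) with an adjusted p of 0.0509 by edgeR, just outside the threshold of 0.05. DESeq2 and limma on TPM called this difference, and over 18 alternative analyses its estimates were 1.57 to 2.23. With any WT or G77S library left out it was not called. In KO the log2 difference was 0.51 (SE 0.47, adjusted p = 0.71), and it was -0.76 without KO replicate 1.

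Mat2b, the regulatory subunit, ran the other way. It stood at 95.4, 114 and 122 CPM in WT, at 90.5 and 80.5 CPM in KO and at 66.1, 46.9 and 70.3 CPM in G77S. On the CPM scale the 3 groups did not overlap. Neither mutant passed the test against WT by edgeR (KO -0.37, SE 0.27, adjusted p = 0.611; G77S -0.86, SE 0.24, adjusted p = 0.0797), and DESeq2 called the latter. The ratio of Mat2a to Mat2b TPM was 0.26 to 0.481 in WT, 0.311 and 0.9 in KO and 1.83 to 3.01 in G77S. The catalytic subunit's RNA thus exceeded that of the regulatory subunit only in the 3 G77S libraries.

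**Figure D2:**
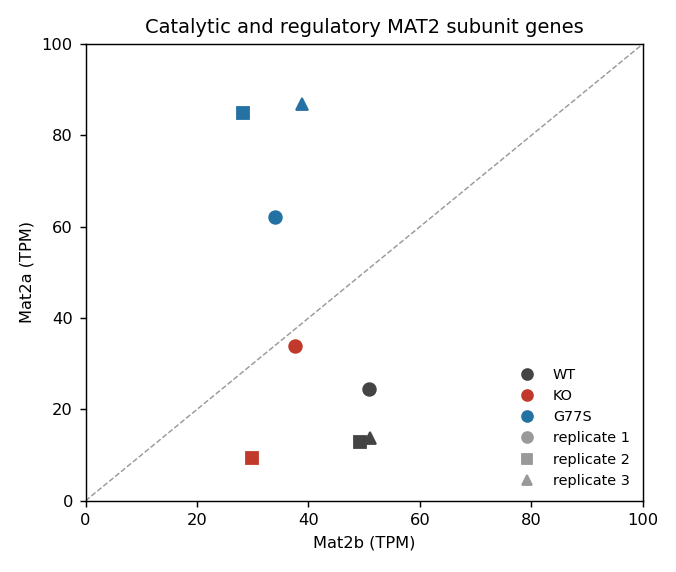
Mat2a against Mat2b in TPM, 1 point per library; the dashed line marks equal levels. The 3 G77S libraries lie above the line (62.1 to 86.8 TPM of Mat2a) and the 5 WT and KO libraries below it.

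The start of Mat2a (chr6:72432799-72439558, - strand) is overlapped by Particl, annotated on the opposite strand. Particl had 1 to 3.1 expected counts in each WT and KO library and 16.4, 16.6 and 18.5 in G77S (adjusted p = 0.253 against WT, edgeR). The labels do not say whether counting used the strand, so reads of the pair cannot be told apart, but those of Particl are few beside the 303 to 2246 expected counts of Mat2a.

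Ahcy, which releases adenosine from S-adenosylhomocysteine, was a low-abundance RNA. Its levels were 16.6, 4.96 and 8.15 CPM in WT, 9.92 and 10.3 CPM in KO and 35.5, 21.1 and 20.0 CPM in G77S. The KO libraries fell inside the WT range, and G77S lay above WT without overlap. For G77S against WT the log2 difference was 1.36 (SE 0.48, adjusted p = 0.145, edgeR), and for KO it was 0.03 (SE 0.53, adjusted p = 1). The G77S difference was called with Y-linked RNA in the model (adjusted p as low as 0.0413 over the alternatives) and without WT replicate 1. Mtr, which remethylates homocysteine, was the lowest of the 10 by mean TPM in all groups. In WT it overlapped Ahcy (0.45 to 6.71 TPM against 1.56 to 6.4 TPM). It ranged from 1.62 to 16.7 CPM within WT alone, with 35 expected counts in WT replicate 3, and its differences changed sign with the processing. No direction was drawn for it.

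No salvage gene was called against WT. Hprt, which recovers hypoxanthine and guanine, stood at 3694, 2503 and 2583 CPM in WT, at 1898 and 3097 CPM in KO and at 3589, 3251 and 3385 CPM in G77S, with the groups overlapping in both comparisons with WT. Hprt lies on the X chromosome, and the libraries differed in Y-linked RNA. WT replicate 1 and G77S replicate 1 had 36.7 and 86.6 CPM over all Y genes, and the other 6 had 265 to 440 CPM. The 4 Y-linked markers Ddx3y, Eif2s3y, Uty and Kdm5d together were nearly absent from the lowest WT and G77S libraries (0.335 and 0.07 CPM). They summed to 259 and 418 CPM in KO. WT replicate 1 was also the highest Hprt library. With Y-linked RNA in the model, edgeR called no Hprt difference. Hprt made up 67.4% to 79.1% of the members' summed TPM in WT, 51.8% and 61.1% in KO and 77.3% to 79.6% in G77S. The share of Adk in that sum was 3.51% to 5.19% in WT, 21.2% and 18.6% in KO and 3.64% to 3.81% in G77S.

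Aprt, which recovers adenine, stood at 290, 386 and 262 CPM in WT, at 332 and 365 CPM in KO and at 314, 260 and 212 CPM in G77S. Its log2 differences from WT were 0.16 in KO (SE 0.25, adjusted p = 0.865) and -0.26 in G77S (SE 0.22, adjusted p = 0.578, edgeR). Dck, which phosphorylates deoxycytidine and purine deoxynucleosides, stood at 25.1, 42.8 and 44.0 CPM in WT, at 24 and 24.5 CPM in KO and at 31.6, 58.0 and 42.6 CPM in G77S. Both KO libraries were below all others, by a small margin from WT replicate 1. The KO difference was -0.62 (SE 0.38, adjusted p = 0.529, edgeR).

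**Figure D3:**
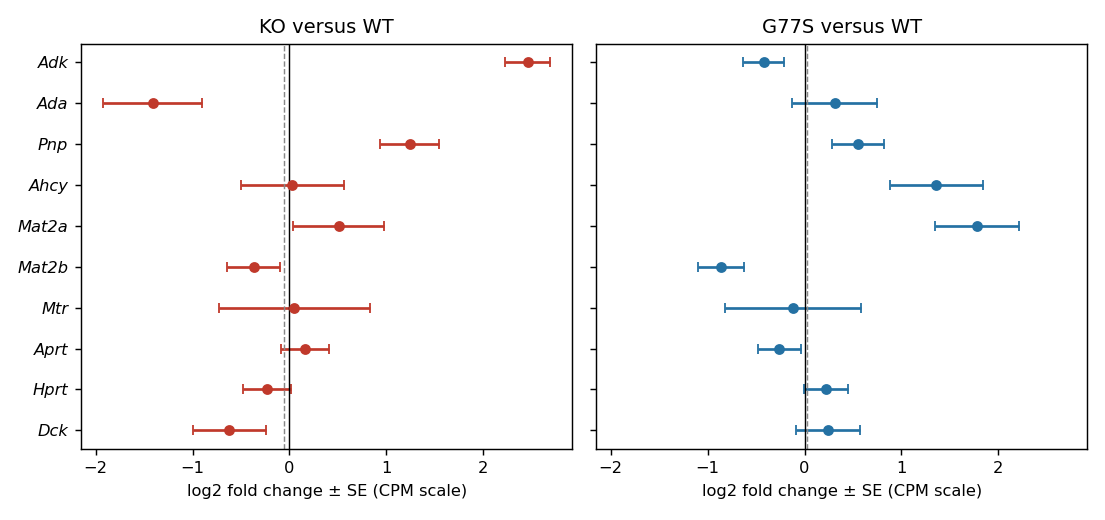
Log2 fold change with its SE for the 10 genes in KO (left) and G77S (right) against WT, on the CPM scale; solid lines mark 0 and dashed lines the median of all tested genes. Adk in KO (2.46) stands far from the others, and Mat2a (1.78) and Ahcy (1.36) lie farthest right in G77S.

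Counted together, none of the 9 genes other than Adk was called in KO against WT by edgeR, where 0.122% of the 13953 tested genes were called. Of the 9, 2 had an unadjusted p under 0.05 (Ada and Pnp), against 13% of all genes. DESeq2 called 1 of them (4.66% of all genes) and limma on TPM none (0.681%). Their median log2 difference was 0.03, and that of all genes was -0.06. The KO libraries lay above all WT libraries for 1 gene (Pnp) and below for 3 (Ada, Mat2b and Dck). Of all genes, 13.1% lay above and 12.5% below, 25.6% together.

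In G77S against WT none of the 10 was called by edgeR, against 3.39% of all genes, and 3 had an unadjusted p under 0.05 (Ahcy, Mat2a and Mat2b), against 20%. DESeq2 called Mat2a and Mat2b (11% of all genes), and limma on TPM called Mat2a (10.5%). The groups did not overlap for Pnp, Ahcy and Mat2a, which were above WT, and Mat2b, which was below. Of all genes, 17.2% lay above and 11.8% below, 29% together. The median was 0.23, beside 0.03 for all genes. In G77S against KO, 0 of the other 9 genes were called by edgeR (5 at an unadjusted p under 0.05, against 20.7% of all genes), where 4.19% of all genes were called. The groups did not overlap for 8 of the 9, against 44.9% of all genes. DESeq2 called Ada (12.2% of all genes), and limma on TPM called Ada, Hprt and Mat2a (13.3%). All 3 comparisons share libraries pairwise.

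The genes beside Adk did not show its pattern. Ap3m1, an adaptor-complex subunit gene whose start lies 65 bases from that of Adk on the opposite strand, stood at 285, 200 and 245 CPM in WT, at 314 and 209 CPM in KO and at 127, 198 and 191 CPM in G77S. Its KO difference was 0.10 (SE 0.28, adjusted p = 0.935, edgeR), and its KO libraries overlapped WT. Kat6b, the next tested gene downstream, encodes a histone acetyltransferase and had 8.86 and 14 CPM in KO against 11.4 to 24.6 CPM in WT. Vcl, which overlaps Ap3m1, had 0.694 to 13.1 CPM over all libraries.

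The next genes upstream of Pnp had KO values above WT. Apex1, a base-excision repair nuclease gene that ends 3.9 kb before Pnp, stood at 122, 147 and 114 CPM in WT, at 264 and 252 CPM in KO and at 183, 229 and 216 CPM in G77S. Its KO difference was 1.02 (SE 0.22, adjusted p = 0.115, edgeR). Osgep, a tRNA-modification gene 6.2 kb away, stood at 52.0, 88.2 and 63.3 CPM in WT and at 126 and 128 CPM in KO (0.91, SE 0.28, adjusted p = 0.211). Neither was called by edgeR, and both had KO libraries above every WT library. By TPM, Apex1 was as high in G77S (164 to 238) as in KO (167 and 194). These 2 neighbours of Pnp, and Vcl, were picked after their values were seen.

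**Figure D4:**
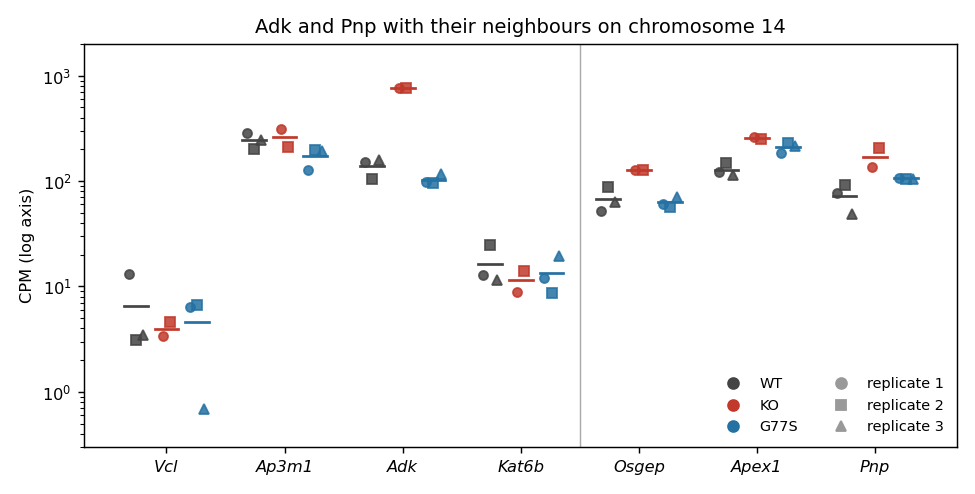
CPM (log axis) of Adk with Vcl, Ap3m1 and Kat6b (left of the grey line) and of Pnp with Osgep and Apex1 (right), 1 symbol per library and a line at each group mean. Adk in KO (761 CPM) stands apart from its neighbours, and Osgep, Apex1 and Pnp each lie above WT in both KO libraries.

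The 5 genes most like Adk over the 8 libraries, among 6072 with a mean of at least 10 CPM, were Adhfe1 (Pearson r = 0.994 of log2 CPM + 1), Cfdp1 (0.987), Hsd17b10 (0.967), Mrps31 (0.966) and Lrrc34 (0.963). Adhfe1, which encodes a mitochondrial hydroxyacid-oxoacid transhydrogenase, stood at 6.13, 3.28 and 6.58 CPM in WT, at 81.7 and 62.3 CPM in KO and at 2.66, 1.77 and 2.78 CPM in G77S. Hsd17b10, a mitochondrial dehydrogenase gene, stood at 81.4 to 102 CPM in WT, 206 and 274 CPM in KO and 54.1 to 75.5 CPM in G77S. Mrps31, of the mitochondrial ribosome, moved less, from 50.1 to 70.3 CPM in WT to 98.3 and 116 CPM in KO. Lrrc34 stood at 0 to 1.78 CPM in WT, at 53.5 and 45.9 CPM in KO and at 0 to 2.17 CPM in G77S. Cfdp1 stood at 264 to 277 CPM in WT and at 407 and 374 CPM in KO. For each of the 5, both KO libraries lay above the other 6, and the genes were picked for that likeness.

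Around the 10 genes, 120 others of 5 pathway lists were in the files and 107 were tested. None was called in KO against WT by edgeR, while 18 had an unadjusted p under 0.05 (13% of all genes). DESeq2 called 6 (4.66% of all genes) and limma on TPM called 1, Cth (0.681%). The KO libraries lay above WT for 17 and below for 9 of them, against 13.1% and 12.5% of all genes. In G77S against WT, 2 were called higher and 5 lower, against 1.3% and 2.09% of all genes. No call was left without G77S replicate 1 or without G77S replicate 2, 1 without WT replicate 3, and 2 without WT replicate 2 or G77S replicate 3. In G77S against KO, 2 were called higher (Srm and Ak4) and 1 lower (Adss), against 1.76% and 2.43% of all genes, with no call left without G77S replicate 1 or 2, and 7 without WT replicate 1.

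Of 26 tested genes of adenosine and purine handling, 1 was called lower in G77S than in WT by edgeR. Slc28a3, a concentrative nucleoside transporter that brings adenosine into cells, stood at 315, 226 and 224 CPM in WT, at 310 and 115 CPM in KO and at 106, 81.2 and 70.4 CPM in G77S (-1.57 against WT, SE 0.35, adjusted p = 0.0381, edgeR). All G77S libraries were below all others. The list's median in G77S was 1.01 on the CPM scale and 0.25 on log2(TPM + 1), where all genes had 0.23. Ak4, a mitochondrial adenylate kinase gene, stood at 45.5, 108 and 108 CPM in WT, at 11.8 and 50.6 CPM in KO and at 249, 143 and 144 CPM in G77S, and was higher in G77S than in KO (2.52, SE 0.61, adjusted p = 0.047). In KO edgeR called no gene of the list (5 at an unadjusted p under 0.05), DESeq2 called Nt5e higher and Slc29a4 lower, and limma on TPM called none. Both DESeq2 calls rest on few counts. Nt5e had 0 expected counts in all WT libraries and in KO replicate 1, and 127 in KO replicate 2. Slc29a4 had 10 to 19 expected counts in each WT library and 0 in both KO libraries. The most abundant genes of the list, the nucleotide kinases Ak6 and Guk1, had KO differences of -0.03 and 0.32.

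De novo purine synthesis, the route that builds purines from ribose phosphate, had 15 tested genes, with 2 called lower in G77S by edgeR. Prps1, which makes the activated ribose phosphate that Aprt and Hprt also use, stood at 3344, 3608 and 3815 CPM in WT, at 2575 and 2000 CPM in KO and at 1948, 1658 and 2299 CPM in G77S (-0.87 for G77S, SE 0.19, adjusted p = 0.0361, edgeR). Both mutant groups lay below WT, and the KO difference was not called (-0.65, SE 0.21, adjusted p = 0.232). Adss, which commits IMP to AMP, stood at 261, 209 and 150 CPM in WT, at 208 and 221 CPM in KO and at 82.6, 103 and 90.2 CPM in G77S (-1.16, SE 0.24, adjusted p = 0.0281). In KO, 5 of the 15 genes lay above all WT libraries (Paics, Gart, Ppat, Impdh2 and Adsl) and 2 below (Prps1 and Prpsap1), where 13.1% and 12.5% of all genes did. The 5 were higher by 0.57 to 1.14 on the log2 scale, and edgeR called none (adjusted p from 0.155 to 0.37), while DESeq2 called Gart and Paics. In G77S, 6 of the 15 lay above all WT libraries (Gart, Ppat, Impdh2, Adsl, Impdh1 and Prpsap2). Below lay 2 (Prps1 and Adss), where 17.2% of all genes were above and 11.8% below. DESeq2 and limma on TPM both called Gart, Ppat, Impdh2, Impdh1 and Prpsap2 higher in G77S. They called 11% and 10.5% of all genes.

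Among 24 tested genes of methionine, transsulfuration and polyamines, edgeR called 2 higher and 1 lower in G77S than in WT. Srm, spermidine synthase, stood at 71.4, 64.8 and 53.0 CPM in WT, at 81.0 and 59.4 CPM in KO and at 208, 209 and 131 CPM in G77S (1.54, SE 0.26, adjusted p = 0.013, edgeR). Cth, which makes cysteine from cystathionine, stood at 10.5, 28.1 and 24.7 CPM in WT, at 83.7 and 81.8 CPM in KO and at 123, 79.3 and 64.1 CPM in G77S. Both mutant groups exceeded WT for Cth, by 2.07 in G77S (SE 0.39, adjusted p = 0.0193) and by 1.97 in KO (SE 0.42, adjusted p = 0.107). Slc3a2, a partner chain of amino acid transporters, fell in G77S (-1.16, SE 0.27, adjusted p = 0.0439), from 400 to 435 CPM in WT to 142 to 226 CPM in G77S. Bhmt, an alternative homocysteine methyltransferase named after its values were seen, had 0 to 19.4 CPM in WT and KO and 351, 143 and 127 CPM in G77S, and edgeR did not call its difference from WT (adjusted p = 0.074), whereas limma on TPM did.

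Of 19 folate one-carbon genes, edgeR called 1 lower in G77S than in WT. Mthfd2, a mitochondrial folate dehydrogenase gene, stood at 40.4, 114 and 156 CPM in WT, at 60.1 and 24.3 CPM in KO and at 10.2, 19.8 and 11.8 CPM in G77S (-2.89, SE 0.53, adjusted p = 0.0175, edgeR). Every G77S library was below every other library. Folr1 and Tyms, the most abundant of the list, were not called in either mutant. Aldh1l1 had 11.2 to 19.9 CPM in KO against 0.496 to 2.34 CPM in WT (3.28, SE 0.74, adjusted p = 0.125, edgeR). DESeq2 called Aldh1l1 in KO (4.66% of all genes), and Fpgs, Ggh, Mtfmt and Mthfd2 in G77S (11%). Of 23 S-adenosylmethionine-using methyltransferases none was called against WT by edgeR. At an unadjusted p under 0.05 there were 2 in KO and 6 in G77S, against 13% and 20% of all genes. DESeq2 called none in KO and Prmt5 and Suv39h2 in G77S, against 4.66% and 11% of all genes. Limma on TPM called none and 3, against 0.681% and 10.5%. Pcmt1, a protein-repair methyltransferase and the most abundant of them, stood at 108, 134 and 111 CPM in WT, at 168 and 190 CPM in KO and at 170, 157 and 159 CPM in G77S (adjusted p = 0.264 and 0.214, edgeR).

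A different test on another scale changed the G77S calls. Limma on log2(TPM + 1) called 15 of the 107 pathway genes higher and 1 lower than WT, where edgeR called 2 higher and 5 lower. Over all genes it called 1178 higher and 288 lower, against 182 and 291 by edgeR. Its pathway calls held Srm, Cth and Mthfd2 but not Slc28a3, Prps1, Adss or Slc3a2. Mean TPM of these 4 was still lower in G77S than in WT, at 42.1 against 79.1 for Slc28a3, 1101 against 1622 for Prps1, 35.5 against 64.6 for Adss and 129 against 243 for Slc3a2.

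**Figure D5:**
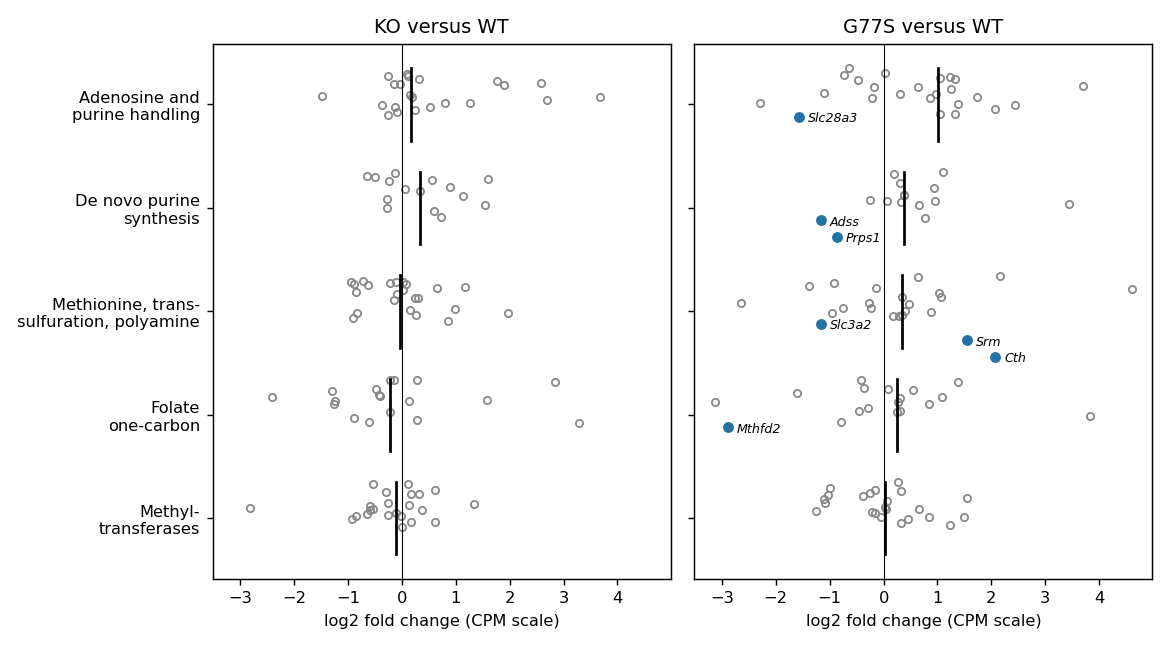
Log2 fold change (CPM scale) of the tested pathway genes in KO (left, 101 plotted) and G77S (right, 103 plotted) against WT; filled labelled points were called, open points were not, and black bars give each list's median. Genes with 0 to 3 counts in a group are not drawn, and called genes appear only in G77S.

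Some lineage markers moved with genotype beside these genes. In G77S the 7 trophectoderm markers summed to 3915 to 4739 CPM, against 7272 to 12800 CPM in the other 5 libraries. That sum is almost wholly the keratins Krt8 and Krt18 (means 2562 and 6055 CPM in WT, 1569 and 2641 CPM in G77S). Krt18 was lower in G77S than in WT (-1.20, SE 0.23, adjusted p = 0.0222, edgeR), and so was the scarcer Elf5 (-4.43, SE 1.04, adjusted p = 0.0475). Cdx2, Gata3 and Tfap2c overlapped WT, with log2 differences of 0.43, -0.04 and -0.23. The epiblast sum was 151 to 261 CPM in G77S against 241 to 305 CPM in WT. Within it Pou5f1 was higher in G77S (2.57, SE 0.41, adjusted p = 0.0104, edgeR). Nanog lay below every WT library, at 66.9 to 176 CPM against 221 to 297 CPM (-1.13, SE 0.36, adjusted p = 0.107). Tdgf1 lay above every WT library, at 44.2 to 87.1 CPM against 0.199 to 13.3 CPM (3.64, SE 1.12, adjusted p = 0.101). The G77S differences of Mat2a, Mat2b, Ahcy and the pathway genes lie beside these markers and the shorter fragments, whose part in them was not tested.

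In KO the trophectoderm sum (7809 and 12800 CPM) overlapped that of WT (7272 to 11195 CPM). Eomes and Tfap2c nevertheless lay below every WT library (-1.60 and -1.45, adjusted p = 0.155 and 0.193, edgeR). Cdx2, Gata3, Elf5, Krt8 and Krt18 overlapped WT, with log2 differences of -0.79, -0.74, -0.68, 0.19 and 0.27. The epiblast sum was 186 and 203 CPM in KO against 241 to 305 CPM in WT. Within it Nanog had 27.4 and 53.4 CPM in KO against 221 to 297 CPM in WT (-2.69, SE 0.44, adjusted p = 0.0529, edgeR). Tdgf1 had 120 and 158 CPM against 0.199 to 13.3 CPM (4.88, SE 1.23, adjusted p = 0.155, edgeR). Pou5f1 also lay below every WT library (-0.94, SE 0.46, adjusted p = 0.413, edgeR). The scarce Klf4, Sox2 and Fgf4 lay above every WT library, at no more than 7.26 CPM in KO, and Esrrb overlapped WT. The primitive endoderm sum was 41.9 and 47 CPM against 17.8 to 23.9 CPM in WT, and it was also above WT in G77S (29.2 to 40.2 CPM). The part of these markers in the Adk level was not tested.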

How the data were processed

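RNA of 8 blastocyst libraries (3 WT, 2 KO, 3 G77S) was deposited as 1 gene table each. Per the file headers, the authors' tables hold RSEM expected counts, in which shared reads are split between genes, TPM scaled within a library, and an abundance-weighted length. Tools named in the submitters' processing notes are RSEM 1.3.1, STAR 2.6.1c, DESeq2 1.42.1 and Trim Galore 0.4.5, with build mm10/GRCm38. Symbols came from GENCODE, which matched 55230 of 55471 identifiers.

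Expected counts were rounded and tested with edgeR 4.0.16 (R 4.3.3): TMM, the filterByExpr minimum (13953 genes), 1 model over all 8 libraries and the quasi-likelihood F test. A gene was called where its Benjamini-Hochberg adjusted p was under 0.05. The steps were tested on simulated counts. The common biological coefficient of variation was 0.655. Fragment length is the deposited length minus the effective length. Alternatives were RLE scaling, other filters, only the groups compared, a replicate block, DESeq2 1.42.0, limma 3.58.1 on log2(TPM + 1) or log2(TPM + 0.1), a Y-linked RNA term, a length correction and each library left out. Intervals and floors are not given for single genes, and amplified reads without molecular identifiers are not independent molecules.

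Members and lists were chosen with earlier results of these data known. Named genes are the 10 members, called genes of each pathway list (or its 2 most abundant), the 5 genes most like Adk, overlapping and adjacent genes of Adk, copies and Isca2. Apex1, Osgep, Vcl, Bhmt, the uncalled purine synthesis genes, genes called by DESeq2 or limma and the lineage markers were named after their values were seen.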

Additional observations from a re-analysis of the deposited data

How the results depend on the processing

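Precision is limited by 2 KO libraries and by genes such as Mtr, with as few as 35 expected counts. Of the 9 genes other than Adk, 0 were called in KO against WT, with 1 (Pnp) under no filter and under DESeq2, and 0 with any library left out. In G77S against WT, 0 of 10 became 1 without a filter, with the stricter filter (5 CPM in 2 libraries), with only the 2 groups compared, with the replicate block and with limma at either pseudocount (Mat2a each time). It became 1 with the Y-linked term (Ahcy), and 2 with DESeq2 and with the length correction (Mat2a and Mat2b). Leaving out a library gave 0 to 1: Ahcy without WT replicate 1, and Mat2a without KO replicate 1 or KO replicate 2. For G77S against KO, Adk is left out because it was chosen on these KO libraries. Of the other 9 genes, 0 were called. Without a filter Ada and Mat2a were called. Ada was called with only the 2 groups or DESeq2, and Ada, Hprt and Mat2a with limma at either pseudocount. With a library left out, Ada was called without WT replicate 1, and the log2 difference of Mat2a ran from 0.60 to 2.55.

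Of the pathway genes, 0 called in KO against WT became 8 without a filter, 6 with DESeq2 and 1 with limma at either pseudocount, and 0 with any library left out. In G77S against WT, 7 became 20 without a filter, 11 with the stricter filter, 11 with only the 2 groups, 20 with DESeq2, and 16 and 15 with limma; leaving out a library gave 0 to 9. In G77S against KO, 3 became 17, 8, 8, 16, 14 and 10 in the same order and 7 with the length correction, and 0 to 7 with a library left out. On log2(TPM + 1) the calls over all genes in G77S against WT shifted to 1178 higher and 288 lower, from 182 and 291, and the all-gene median to 0.23. The cause of these changes was not tested.

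Signs reversed as follows. For Adk in G77S against WT, limma gave 0.27 at both pseudocounts. With a library left out, Ada in G77S ran from -0.04 (without WT replicate 1) to 0.82, Mat2a in KO from -0.76 (without KO replicate 1) to 1.18, and Hprt in KO from -0.62 to 0.09 (without KO replicate 1). The length correction gave -0.01 for Aprt in KO and -0.01 for Hprt in G77S. Ahcy in KO gave -0.04 and -0.00 with limma, and -0.29 and -0.10 without WT replicates 2 and 3, with leave-one-out values up to 0.62. Mtr in KO gave -0.03 with the replicate block, -0.75 and -1.05 with limma, and -0.10, -0.43 and -0.47 without WT replicate 2, WT replicate 3 and KO replicate 1 (up to 1.12 without WT replicate 1). Mtr in G77S against WT gave 0.41 with the block, 0.03 and 0.26 with limma, 0.61 with the Y-linked term, 0.11 with the length correction and 0.94 without WT replicate 1 (down to -0.61 without WT replicate 3). Mtr in G77S against KO gave 0.44 with the block, 0.78 and 1.3 with limma and 0.35 without KO replicate 1 (down to -0.56 without KO replicate 2). Samples with the same replicate number did not deviate together (r from -0.021 to 0.071 over 7 pairs), so the numbers were not taken as pairs. With the replicate block, the calls over all genes went from 11 higher and 6 lower to 4 and 4 in KO against WT.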
